A study of Mus musculus with 2 samples.

Results

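Collagen, laminin and integrin genes were examined in a map of H3K4me3, the trimethylated form of lysine 4 of histone H3 and a mark of active and poised promoters. The chromatin was that of NOS1+ enteric neurons sorted from mouse small intestine. The members were the protein-coding genes of the mm10 RefSeq table whose symbol begins as that of a numbered collagen chain (Col), laminin chain (Lama, Lamb, Lamc) or integrin chain (Itga, Itgb). This gave 79 of 21887 protein-coding genes: 44 collagen, 11 laminin and 21 integrin genes, and 3 genes for binding partners of integrins that share the first letters. Integrin chains named with a letter, such as Itgav and Itgam, are not members. The series held 2 libraries from cells carrying NOS1, the neuronal nitric oxide synthase of the nitrergic neurons that relax gut muscle. One was an H3K4me3 immunoprecipitate and the other an input chromatin library, for which no file was used. The labels give no strain, age, sex, genotype or treatment, and no way by which NOS1+ cells were recognised. With 1 library there was no replicate, no test and no p-value, and the depth is unknown because the peak list holds no read counts.

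Collagens are triple-helical proteins of the extracellular matrix. Fibrillar collagens form the load-bearing fibres, type IV collagens the network of basement membranes, type VI collagens beaded filaments around cells, and the FACIT group (fibril-associated collagens with interrupted triple helices) decorates fibres. Laminins are heterotrimers of an alpha, a beta and a gamma chain and are the main adhesive proteins of basement membranes. Integrins are receptors of an alpha and a beta chain that tie the cytoskeleton to these ligands. In the gut, enteric ganglia are wrapped by a basement membrane and by collagen-rich tissue, and the beta chain encoded by Itgb1 is needed by neural crest cells to colonise the bowel.

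The 6 type IV genes lie in the genome as 3 pairs that are transcribed away from a shared region, and they are shown first because a peak there can be read against both genes. The sequences below are RefSeq promoters of mm10 (GRCm38.p6), from 250 bases before to 50 after an annotated start, 5′ to 3′ on the strand of the gene, with each CG dinucleotide in capitals. Those of Col4a1 (chr8:11312777-11313076, minus strand) and Col4a2 (chr8:11312555-11312854, plus strand) overlap.
Col4a1: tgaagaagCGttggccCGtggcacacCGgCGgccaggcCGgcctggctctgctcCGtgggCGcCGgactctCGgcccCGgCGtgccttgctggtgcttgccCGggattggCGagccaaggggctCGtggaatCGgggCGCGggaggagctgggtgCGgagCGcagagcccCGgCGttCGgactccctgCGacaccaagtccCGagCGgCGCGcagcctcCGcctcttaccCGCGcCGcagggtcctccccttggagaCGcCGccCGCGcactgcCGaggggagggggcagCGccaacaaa
Col4a2: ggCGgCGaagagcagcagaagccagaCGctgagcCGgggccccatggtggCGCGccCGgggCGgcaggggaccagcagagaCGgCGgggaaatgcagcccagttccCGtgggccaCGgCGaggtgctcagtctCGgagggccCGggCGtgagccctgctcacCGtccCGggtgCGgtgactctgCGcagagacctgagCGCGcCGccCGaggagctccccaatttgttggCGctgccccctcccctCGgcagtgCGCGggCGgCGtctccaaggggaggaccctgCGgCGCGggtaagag
The pair on chromosome 1 is represented by Col4a4 (chr1:82586800-82587099, minus strand). The pair on chromosome X is Col4a6 (chrX:141474027-141474326, minus strand) and Col4a5 (chrX:141475169-141475468, plus strand).
Col4a4: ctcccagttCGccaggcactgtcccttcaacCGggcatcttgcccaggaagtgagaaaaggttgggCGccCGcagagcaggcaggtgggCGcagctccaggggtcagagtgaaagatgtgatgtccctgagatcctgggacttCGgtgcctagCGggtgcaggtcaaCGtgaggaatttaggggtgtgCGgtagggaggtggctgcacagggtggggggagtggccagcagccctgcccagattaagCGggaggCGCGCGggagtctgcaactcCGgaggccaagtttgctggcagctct
Col4a6: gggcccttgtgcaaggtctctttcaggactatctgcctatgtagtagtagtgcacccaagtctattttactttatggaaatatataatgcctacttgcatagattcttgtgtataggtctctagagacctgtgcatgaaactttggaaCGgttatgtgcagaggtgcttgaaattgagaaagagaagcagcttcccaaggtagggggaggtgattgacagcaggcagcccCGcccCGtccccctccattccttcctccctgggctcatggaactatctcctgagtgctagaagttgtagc
Col4a5: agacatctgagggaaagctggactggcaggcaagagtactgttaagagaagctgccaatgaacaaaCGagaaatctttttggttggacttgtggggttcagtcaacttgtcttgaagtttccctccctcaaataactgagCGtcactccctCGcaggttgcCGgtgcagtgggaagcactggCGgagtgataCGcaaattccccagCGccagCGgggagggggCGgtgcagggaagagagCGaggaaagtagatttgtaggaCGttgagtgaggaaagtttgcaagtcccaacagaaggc
The number of CG dinucleotides in these windows was 37 for Col4a1, 33 for Col4a2, 14 for Col4a4, 11 for Col4a5 and 3 for Col4a6. Over the 21263 promoter windows of protein-coding genes in the table the median was 13 (interquartile range 4 to 24). The GC box GGGCGG, searched on both strands, was present in 4 of the 5 windows and absent from that of Col4a4. It was found in 46.2% of all those windows. CCAAT, on either strand, was found in the windows of Col4a1, Col4a2 and Col4a5 and in 38.2% of all windows. A match is only a match of letters.

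The peaks at the 3 pairs differed widely in width and score. Col4a1 and Col4a2, which encode the chains of the common basement membrane network, have annotated starts 21 bp apart with overlapping first bases. A single peak of 3228 bp at a score of 144.4 covered both starts (chr8:11311125-11314352). It reached 1702 bp into Col4a1 and 1548 bp into Col4a2, so the peak lay almost evenly on both genes. By width it ranked 678 among the 14665 protein-coding genes with a peak. A further peak of 370 bp at a score of 13.5 lay 1754 bp from the start of Col4a1, inside that gene. The score is the value the authors deposited for each peak, on a scale that is not stated, and is used here only to rank and describe peaks of this list.

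Col4a3 and Col4a4 encode chains of the basement membranes of kidney, lung and inner ear. The start of Col4a4 lay 72 bp from the facing end of the Col4a3 model. Col4a3 is not in the table of starts, so its direction was read from the place of its model. One peak of 1013 bp at a score of 44.9 covered both (chr1:82586462-82587474), reaching 388 bp into Col4a4 and 554 bp into Col4a3. Col4a4 also held peaks of 902 and 334 bp, 110408 and 111723 bp from its start.

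Col4a5 and Col4a6, on the X chromosome, differed from the other pairs in that no peak covered both starts. These starts lay 1343 bp apart. A peak of 784 bp at a score of 20.5 covered the start of Col4a5 and ended 1068 bp short of that of Col4a6. Col4a6 had only a peak of 164 bp at a score of 7.32, 196 bp inside the gene, which was lost when peaks under 300 bp were left out.

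**Figure D1:**
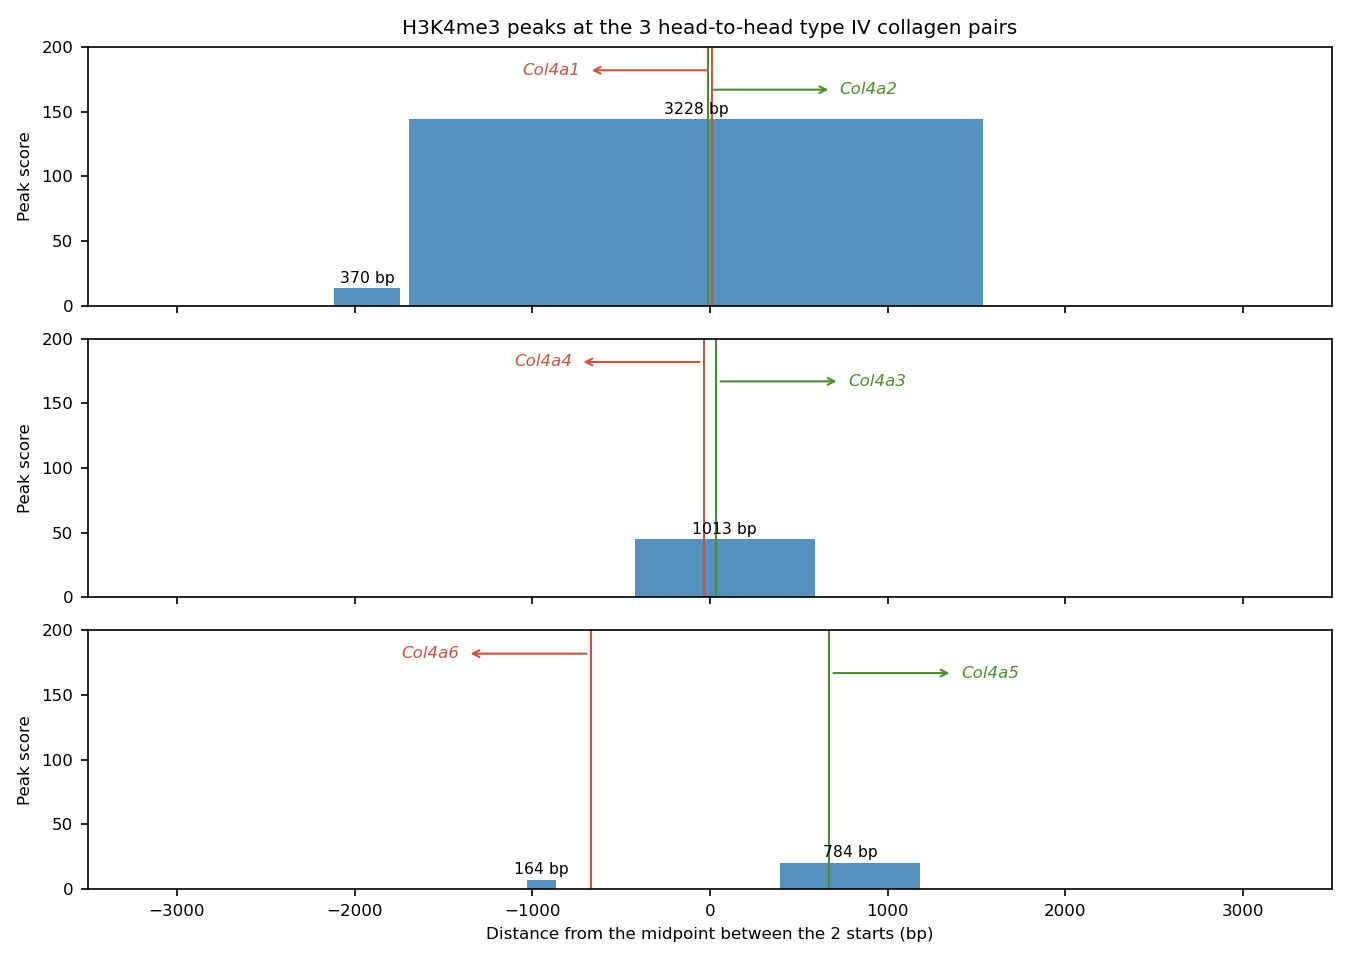
H3K4me3 peaks at the 3 head-to-head type IV collagen pairs, with distance from the midpoint of the 2 starts in bp on the horizontal axis and the authors' peak score on the vertical axis. Bars are peaks with their width in bp, vertical lines are the starts and arrows give the direction of each gene. One peak of 3228 bp spans the starts of Col4a1 and Col4a2, one of 1013 bp those of Col4a4 and Col4a3, and separate peaks of 164 and 784 bp lie at Col4a6 and Col4a5.

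In all, 66 of the 79 members (83.5%) had a peak, taken as at least 1 bp of a peak over the gene model or within 1 kb of it, against 67.0% of all protein-coding genes. By class these were 36 of 44 collagen genes (81.8%), 10 of 11 laminin genes (90.9%), 18 of 21 integrin genes (85.7%) and 2 of the 3 binding partners. Members have long gene models, with a median of 77142 bp against 17169 bp for all protein-coding genes, so genes of like length were also counted. Whether length bears on the share with a peak was not tested. Among protein-coding genes as long as the middle 50% of the members (33029 to 138723 bp), 83.9% had a peak, and so did 32 of the 39 members of that length. The share of members with a peak was therefore near the share for genes of their length. At the annotated start (within 1 kb, or at either end of the model for genes without an entry in the table of starts) 60 members (75.9%) had a peak, against 62.9% of all protein-coding genes and 78.7% of those of the members' length, of which 31 of 39 members had one. With peaks under 300 bp also left out, 56 members (70.9%) had one there, against 61.1% of all protein-coding genes. Genes of the members' length were not counted under this last rule.

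The members' widest peaks had a somewhat larger median width than those of all genes, with a larger spread. The highest score per gene, which need not be that of the widest peak, had a lower median at the members. The widest peak per member had a median width of 1741 bp, with the middle 50% between 1010.75 and 2347 bp. Over all protein-coding genes with a peak the median was 1515 bp, with the middle 50% between 1064 and 2037 bp. Of the 66 members with a peak, 37 were above that median. For genes of the members' length the median was 1593 bp, and the members of that length had a median of 1828 bp. A peak of at least 2000 bp was present at 22 members (27.8%) and at 17.5% of all protein-coding genes; within the members' length range these were 13 of 39 members and 24.3% of genes. The highest score per member had a median of 70.4, against 152.6 for all genes with a peak and 158.1 for those of the members' length, where the members' own median was 93.1. A peak among the best-scored 25% of the list lay over 11 members (13.9%), against 37.3% of all protein-coding genes and 49.2% of those of the members' length, of which 6 of 39 members had one. For the 50% with the higher scores the count was 49 members (62.0%) against 57.7% of all protein-coding genes; within the members' length range these were 28 of 39 members and 74.0% of genes. The members with a peak in that top 25% were Col4a1, Col4a2, Col27a1, Col23a1, Lama4, Lamb2, Lamc1, Itga5, Itgb1 and the binding partners Itgb1bp1 and Itgb3bp. At Col23a1 and Lamb2 that peak lay at the 3′ end of the model and within 1 kb of an end of a neighbouring gene.

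**Figure D2:**
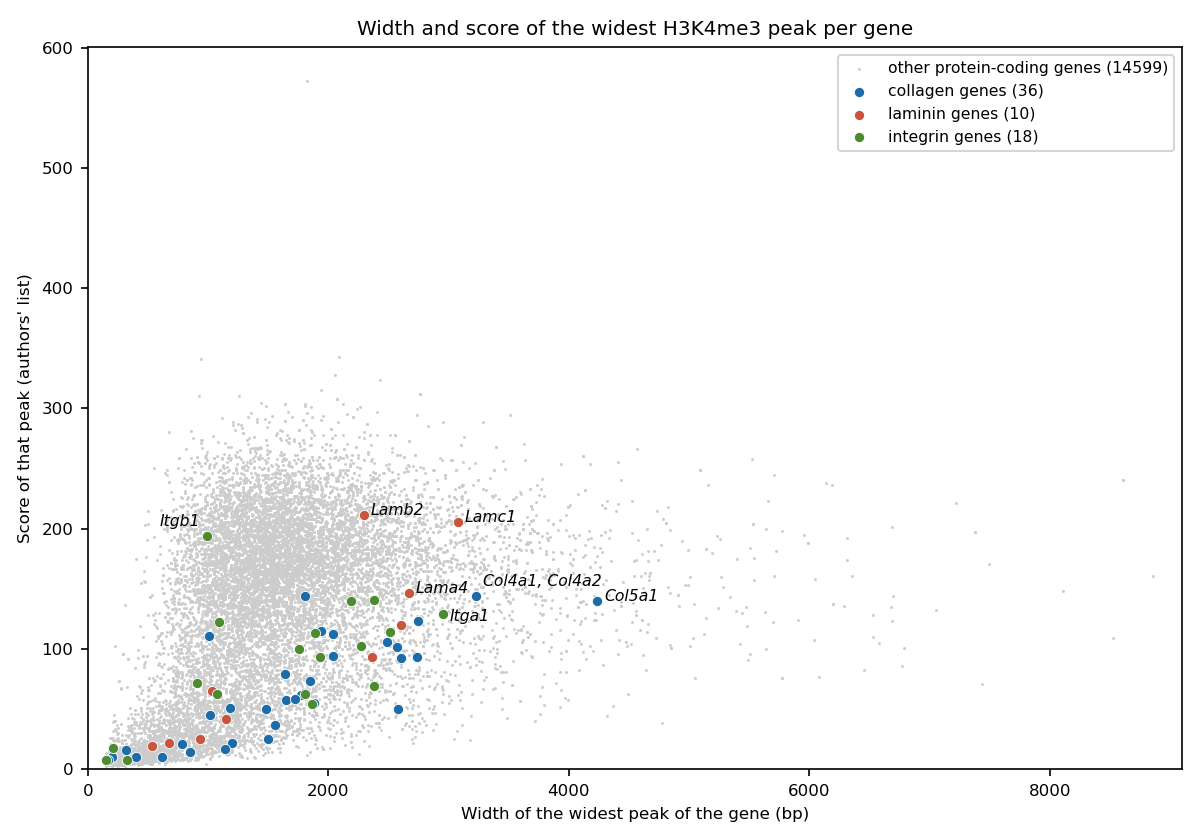
Width in bp of the widest peak per gene against the authors' score of that peak, for 36 collagen, 10 laminin and 18 integrin genes and for the other protein-coding genes with a peak in grey. Most coloured points lie below the main cloud of grey points, at scores under 150, and Itgb1, Lamb2 and Lamc1 stand at or above 194.

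The fibrillar collagens were all marked, 11 of 11, with a median width of 1808 bp. A peak was present at 67.0% of all protein-coding genes and at 83.9% of those of the members' length. Of the 11, Col24a1 and Col2a1 had no peak among the 50% with the higher scores. Col5a1, whose chain starts and sizes fibrils, had the widest peak of the 79 members. It measured 4238 bp at a score of 139.6, ranked 175 among all genes with a peak, and ran from 729 bp outside to 3509 bp inside the gene model. Its partner chain Col5a2 had a peak of 2491 bp and Col5a3 one of 1648 bp. Col11a1, a related regulatory chain, had one of 2601 bp at a score of 92.5, followed by 3 small peaks. The genes for the abundant chains of type I and type III fibres had peaks of similar width, 1877 bp at Col1a1, 1641 bp at Col1a2 and 1848 bp at Col3a1, with scores of 54.7, 79.3 and 73.5. At Col3a1 the start peak was followed by 4 more, of 213, 659, 692 and 234 bp, within the first part of the gene, and joining peaks closer than 1 kb gave a stretch of 4832 bp. Col27a1 had 3 adjoining peaks of 574, 723 and 1808 bp, of which the widest covered the start at a score of 144.4. Col24a1 (1141 bp, score 16.6) and Col11a2 (1185 bp, score 50.5, also within 1 kb of an end of Rxrb) were narrower. Col2a1, the collagen of cartilage, had the weakest marking of the group, with peaks of 619 bp at a score of 9.68 and of 153 bp at a score of 6.67 inside the model and one of 183 bp near its upper end.

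The type VI collagens split into marked and unmarked genes. Col6a1, Col6a2 and Col6a3, which encode the chains of the widespread type VI protein, had peaks of 2041, 1942 and 1555 bp with scores of 94.4, 114.9 and 36.4. Col6a4, Col6a5 and Col6a6, a neighbouring group of genes on chromosome 9 for alternative chains, had none. The peaks nearest to them lay 51.2, 185.5 and 45.5 kb from the models. The promoters of one marked and one unmarked gene, and of Col3a1, are shown as cases in which the marked genes have few CG dinucleotides and the unmarked one has more: Col6a1 (chr10:76725995-76726294, minus strand), Col6a6 (chr9:105828036-105828335, minus strand) and Col3a1 (chr1:45311288-45311587, plus strand).
Col6a1: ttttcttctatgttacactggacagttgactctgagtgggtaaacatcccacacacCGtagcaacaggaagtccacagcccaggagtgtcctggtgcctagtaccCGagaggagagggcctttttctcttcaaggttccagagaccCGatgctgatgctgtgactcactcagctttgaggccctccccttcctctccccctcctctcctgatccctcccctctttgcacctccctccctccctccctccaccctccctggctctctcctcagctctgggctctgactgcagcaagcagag
Col6a6: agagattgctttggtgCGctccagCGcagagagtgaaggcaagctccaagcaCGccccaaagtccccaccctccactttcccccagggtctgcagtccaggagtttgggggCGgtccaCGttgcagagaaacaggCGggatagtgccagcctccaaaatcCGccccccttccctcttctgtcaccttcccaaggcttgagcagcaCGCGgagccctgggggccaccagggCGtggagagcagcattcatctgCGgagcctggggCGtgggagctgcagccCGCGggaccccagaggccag
Col3a1: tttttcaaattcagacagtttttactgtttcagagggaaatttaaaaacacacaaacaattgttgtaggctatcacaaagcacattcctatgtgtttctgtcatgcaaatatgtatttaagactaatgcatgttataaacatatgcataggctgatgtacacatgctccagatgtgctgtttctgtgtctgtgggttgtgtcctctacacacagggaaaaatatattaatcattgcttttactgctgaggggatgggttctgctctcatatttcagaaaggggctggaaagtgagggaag
Promoters rich in CG carry H3K4me3 in most cell types. These windows held 3 CG dinucleotides at Col6a1, 14 at Col6a6 and 0 at Col3a1. CG dinucleotides under the peaks themselves were not counted, and a bearing of CG content on the mark was not tested. The window of Col3a1 also held TATAAA, on either strand, as did 12.6% of all windows. These 3 genes were chosen after their values were seen and do not stand for the members, which went both ways. The marked Col5a1 had 34 CG in its window and Col13a1 29, but the marked Col6a3 had 3 and Lama2 1. Of the unmarked genes Itgb2l had 2, Col17a1 and Col6a4 5 each and Col10a1 6, but Col6a5 had 10 and Col7a1 12. CG content was not compared over the members as a whole, because only 58 of 79 (73.4%) are in the table of promoters.

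Among the 9 FACIT genes 3 carried broad peaks and the rest narrow ones or none. Col12a1 (2749 bp, score 122.9), Col16a1 (2733 bp, score 93.0) and Col14a1 (2582 bp, score 49.6) stood apart from Col9a2 (1202 bp, score 22.0), Col19a1 (400 bp), Col9a3 (318 bp) and Col20a1 (198 bp). Col9a1 and Col22a1 had no peak. Type IX collagen, the product of the Col9 genes, belongs to cartilage, whereas type XII and type XIV collagens coat the fibres of connective tissue. At Col12a1 the widest peak began 1261 bp inside the upper end of the model, so the window of 1 kb at the ends missed it, and 4 further peaks followed within the gene. Joined where closer than 1 kb, they formed a stretch of 5858 bp. Col16a1 held 7 peaks, the largest number among the members, of which 6 lay inside the gene at widths of 155 to 952 bp.

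Of the 4 transmembrane collagens, Col13a1 had a peak of 1497 bp at a score of 24.7, Col25a1 one of 1483 bp at a score of 49.98 and Col23a1 one of 1010 bp at a score of 110.9 at its start. Col17a1, the collagen of epithelial hemidesmosomes, had none. Col23a1 also had peaks of 988 and 716 bp at its 3′ end with scores of 263.4 and 211.2, which lie at an end of Phykpl. Among the remaining collagens, Col18a1 and Col15a1, whose proteins sit at basement membranes and carry heparan or chondroitin sulfate, had the widest peaks. Col18a1 has an outer and an inner start in the table and each carried its own peak, of 2569 bp at a score of 101.1 at the outer start and of 2085 bp at a score of 32.6 at the inner one. Col15a1 had a peak of 2041 bp at a score of 112.1. Col26a1 (1776 bp, score 61.9), Col8a1 (1725 bp, score 58.1) and Col8a2 (671 bp, score 22.4) were also marked. Col28a1, a collagen gene known from peripheral glia, had a peak of 850 bp at a score of 14.2 that lay 13486 bp from the annotated start. Col7a1, which encodes the anchoring fibril collagen of skin, and Col10a1, that of growth plate cartilage, had none. A window of 5 kb in place of 1 kb would add Col7a1, through a peak of 369 bp that lies 3.3 kb from its model within 1 kb of an end of Pfkfb4, and no other member.

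**Figure D3:**
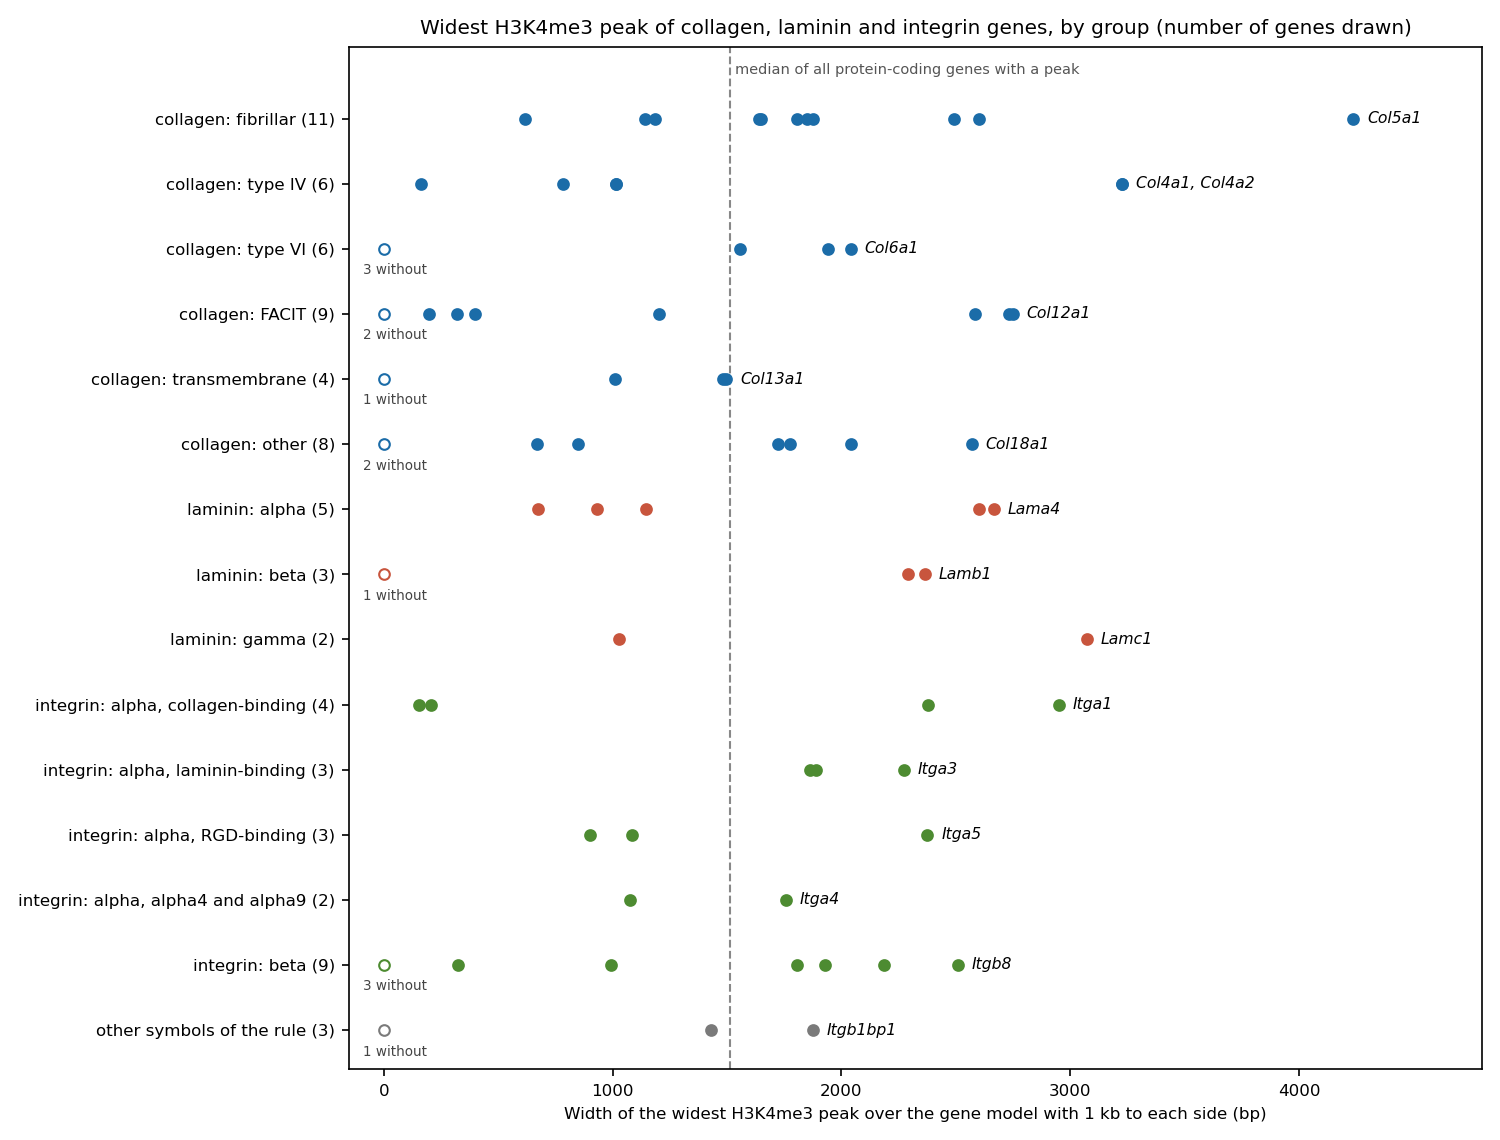
Width in bp of the widest H3K4me3 peak of 78 of the 79 members, by group, with the number of genes drawn in brackets. Filled points are genes with a peak, open points at 0 stand for the genes without one, and the dashed line is the median of 1515 bp over all protein-coding genes with a peak; the widest gene of each group is named, from Col5a1 at 4238 bp downwards.

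The laminin genes ranged from broad to narrow peaks, with alpha and gamma chains on both sides. Lamc1, whose gamma chain is part of most laminin trimers, had a peak of 3075 bp at a score of 205.4. Lama4 (2668 bp, score 146.8), Lama5 (2600 bp, score 119.6) and Lamb1 (2365 bp, score 93.1) came next. These 4 genes encode chains that join in the laminins of vessels, muscle and nerve. At Lama4 a second peak of 1214 bp followed the first, and the joined stretch measured 4645 bp. Lama2, whose chain is typical of muscle and Schwann cell basement membranes, had 1144 bp at a score of 41.9, and Lama1 had 934 bp at a score of 24.7. Lama3, whose chain belongs to the laminin of epithelial basement membranes, had a peak of 673 bp at a score of 21.9. Lamb3, which encodes another chain of epithelial laminin, had none. The nearest peak to Lamb3 lay 20.7 kb from its model.

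At 2 laminin genes the widest peak lay within 1 kb of an end of another protein-coding gene. The widest at Lamb2, whose chain is known from the neuromuscular junction, measured 2293 bp at a score of 210.9 and lay at the 3′ end of the gene, at an end of Usp19. At its start Lamb2 had peaks of 643, 153 and 711 bp, of which those of 643 and 711 bp had scores of 116.8 and 107.4. Lamc3 had a peak of 1030 bp at a score of 65.3 outside the upper end of its model, within 1 kb of an end of Aif1l. The other peak of Lamc3 was 175 bp wide at a score of 4.81 and lay near the lower end. Lamc3 is not in the table of starts, so which of its peaks lies at the start is not known here. The widest peaks of Lama5 and Lamb1 lay at an end of a long noncoding RNA gene, and so did those of Col15a1, Col16a1 and Itga7.

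All 12 integrin alpha genes had a peak, beside 67.0% of all protein-coding genes and 83.9% of those of the members' length. Their widest peaks measured 153 to 2950 bp. At the annotated start, or at either end where none was given, 9 of the 12 had one, beside 62.9% of all protein-coding genes. Of the chains that bind collagen, Itga1 had the widest, 2950 bp at a score of 129.1, and Itga2, its neighbour on chromosome 13, one of 2378 bp at a score of 69.5. Itga10 and Itga11, the other collagen-binding chains, had only peaks of up to 207 bp and of 153 bp, and those of Itga10 lay at its 3′ end. Peaks of 1004 and 969 bp further inside Itga1 lie within 1 kb of an end of Pelo, a gene placed inside it. The laminin-binding chains were alike in width, 2272 bp at Itga3, 1887 bp at Itga6 and 1865 bp at Itga7, with scores of 102.3, 113.0 and 54.0. Itga3 has a second annotated start, which had no peak within 1 kb. Itga5, the fibronectin receptor chain, had a peak of 2376 bp at a score of 140.9, and Itga8 one of 1086 bp at a score of 122.3, also at an end of the long noncoding RNA gene E030013I19Rik. Itga4, the chain that migrating neural crest and leukocytes use on fibronectin, had a peak of 1757 bp at a score of 99.6. At Itga9 a peak of 1077 bp at a score of 62.3 lay at the 5′ end of the model, 104023 bp from the start given in the table. Itga2b, the platelet chain, had 2 peaks away from its start, of 903 and 693 bp, and none within 1 kb of it.

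Of the 9 beta genes 6 (66.7%) had a peak, near the 67.0% of all protein-coding genes. Itgb8 (2510 bp, score 114.3) and Itgb3 (2187 bp, score 140.0) had the widest, followed by Itgb5 (1927 bp, score 93.1). These chains pair with the alpha chain of Itgav, which is not a member and had a peak of 2571 bp at a score of 152.3 at its start. Itgb1, the partner of most matrix-binding alpha chains, had the highest score of all integrin genes, 194.2, but a widest peak of only 992 bp. Its mark was split at the start. A peak of 918 bp at a score of 159.2 ended 3 bp before the annotated start, and the peak of 992 bp began 112 bp after it, with a gap of 114 bp between them. With 2 more peaks of 170 and 653 bp the joined stretch was 3242 bp, 3.27 times the width of the widest single peak. Itgb4, the partner of Itga6 at hemidesmosomes and in Schwann cells, had 1804 bp at a score of 62.3. Itgb7, a leukocyte chain, had 3 peaks of 200 to 324 bp, the nearest 6637 bp from its start. Itgb2, also a leukocyte chain, Itgb2l and Itgb6, an epithelial chain, had none. The peaks nearest to these 3 lay 13.7, 24.2 and 44.7 kb away. The promoters of Itgb1 (chr8:128685404-128685703, plus strand) and of the unmarked Itgb6 (chr2:60722554-60722853, minus strand, the outer of its 2 annotated starts) are shown to set a marked against an unmarked chain.
Itgb1: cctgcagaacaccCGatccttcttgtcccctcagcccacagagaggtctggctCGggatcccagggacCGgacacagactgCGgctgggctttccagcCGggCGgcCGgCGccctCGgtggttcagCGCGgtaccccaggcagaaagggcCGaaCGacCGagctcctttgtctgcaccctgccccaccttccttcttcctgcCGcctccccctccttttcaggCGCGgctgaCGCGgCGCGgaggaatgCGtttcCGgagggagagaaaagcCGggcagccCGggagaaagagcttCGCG
Itgb6: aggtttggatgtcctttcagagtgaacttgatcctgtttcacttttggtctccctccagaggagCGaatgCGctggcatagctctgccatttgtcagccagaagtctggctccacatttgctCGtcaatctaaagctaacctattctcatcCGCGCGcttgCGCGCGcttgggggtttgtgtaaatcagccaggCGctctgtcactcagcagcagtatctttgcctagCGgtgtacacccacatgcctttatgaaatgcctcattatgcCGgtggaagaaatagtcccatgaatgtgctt
The window of Itgb1 held 27 CG dinucleotides and GGGCGG, and that of Itgb6 held 12 CG and no GGGCGG. The 12 CG lie close to the median of 13 over all windows, while the window of the inner start of Itgb6 (chr2:60673644-60673943) held 3.

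Of the 3 binding partners, Itgb1bp1 had a peak of 1874 bp at a score of 155.8 that also lies at an end of Cpsf3, and Itgb3bp one of 1429 bp at a score of 199.8 shared with an end of Efcab7. Itgb1bp2, a muscle protein, had none.

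The members held 151 different peaks, of which 52 were under 300 bp wide and 12 belonged to the 25% with the highest scores. Of the 151, 72 lay inside a model, away from its ends and its start, and these had a median width of 305 bp. The widest peak of a gene more often lay at a start. Of the 66 widest peaks, 41 lay within 1 kb of an annotated start, 1 at the 5′ end of the model away from the start in the table, 16 at an end of a model without an entry in the table of starts, 2 at a 3′ end and 6 inside. The 6 inside were those of Col12a1, Col2a1, Col20a1, Col28a1, Itga2b and Itgb7. Where the widest peak covered an end of the model, 38 of 43 (88.4%) had more of their width inside than outside, with medians of 1446 and 400 bp. Over all protein-coding genes this held for 85.2%, with medians of 1097 and 452 bp. By these medians the part inside the model was longer at the members and the part outside was not. Genes of the members' length were not compared in this way, and the covered end was not always a start.

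**Figure D4:**
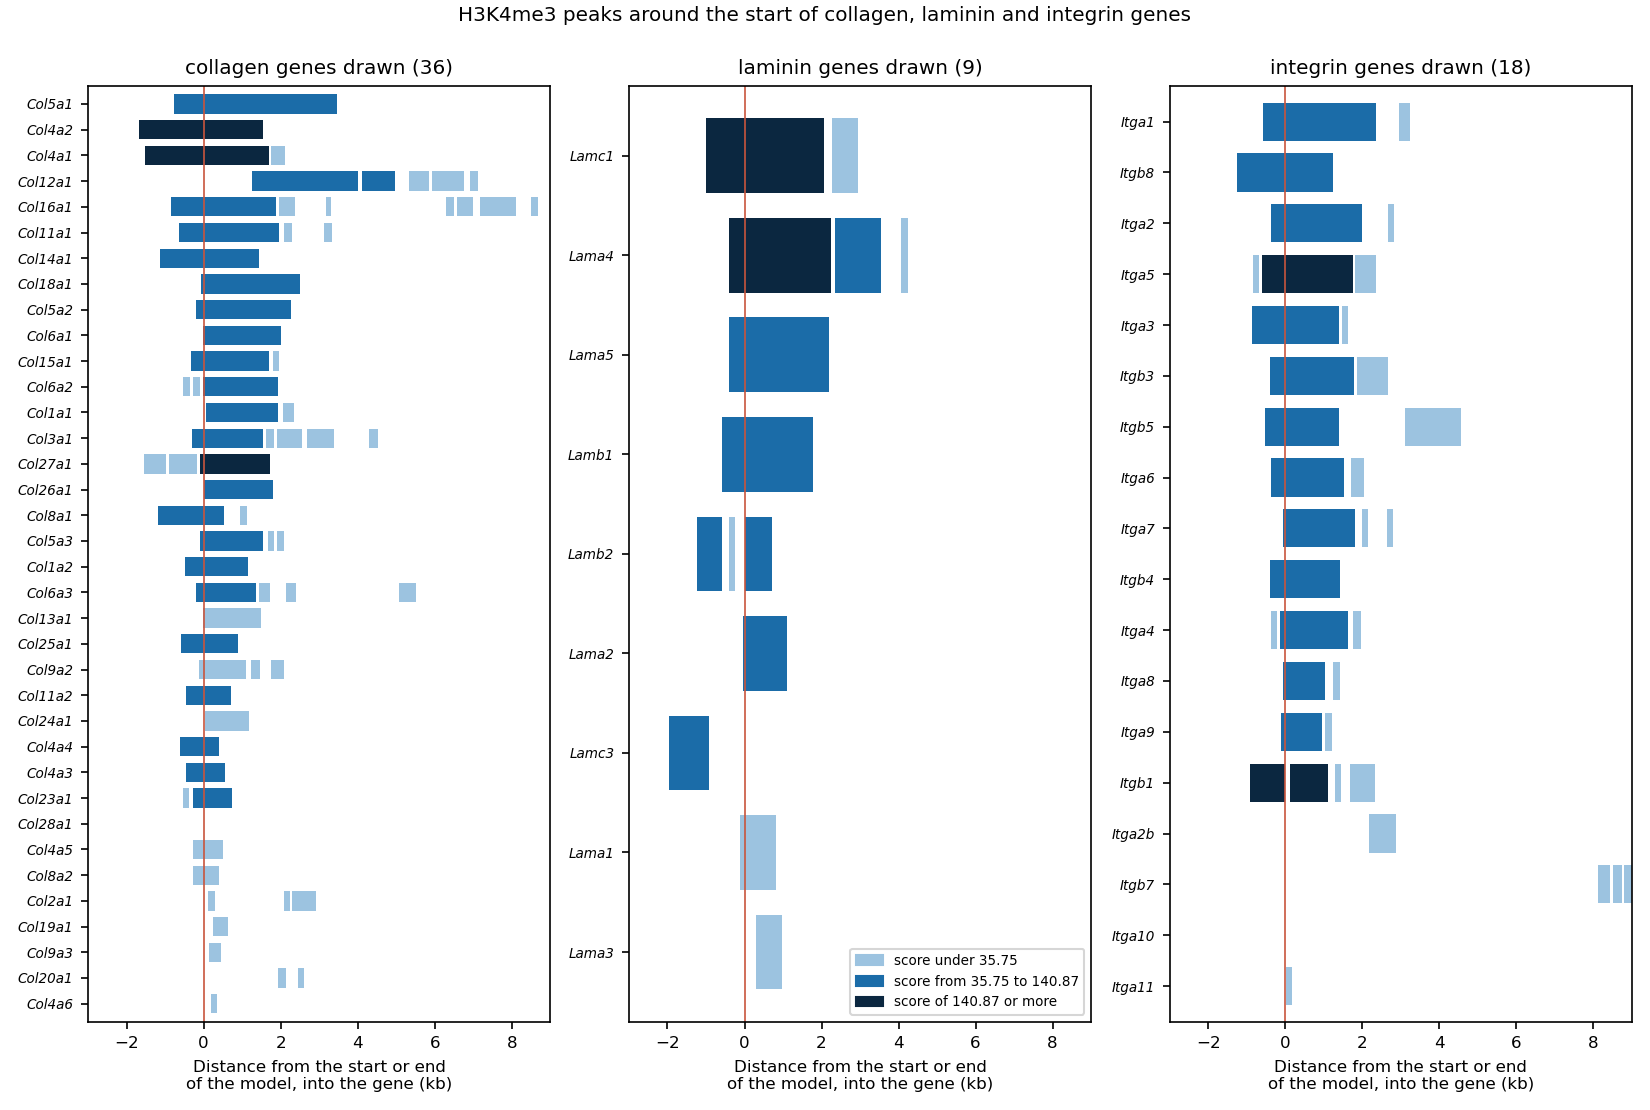
H3K4me3 peaks of 36 collagen, 9 laminin and 18 integrin genes with a peak, ordered by the width of the widest. Distance is in kb from the annotated start (of several, the one lowest in coordinate), with positive values into the gene. Where the widest peak lies over 1 kb from that start, distance is from the 5′ end of the model. For genes without a start in the table, it is from the end of the model nearest the widest peak. Bars are peaks shaded by the authors' score; peaks beyond 3 kb outside or 9 kb inside are not drawn, among them those of Col28a1, Itga10 and the 3′ peak of Lamb2, and Lamc3 is drawn from its upper end. The split of the mark at the start of Itgb1 and the rows of small peaks in Col12a1 and Col16a1 can be seen.

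Genes that work with the members were listed by role, 82 in all, and 72 of them had a peak, beside 67.0% of all protein-coding genes. These lists were not compared with genes of their own length. Collagen-processing genes were marked in 19 of 20, all but Loxl2, with a median width of 1639 bp. Serpinh1, the collagen chaperone, had 3245 bp, Loxl3, a lysyl oxidase, 2824 bp and Plod3, a lysyl hydroxylase, 2431 bp. The peak of Loxl3 also lies at an end of Aup1 and of Htra2, and that of Plod3 at an end of Znhit1. Of 15 other matrix genes all had a peak, led by Sparc (3779 bp), Hspg2, which encodes the basement membrane proteoglycan perlecan (2804 bp), and Tnc (2328 bp). Dcn and Lum, proteoglycans made by fibroblasts, were at the bottom of that list with 295 and 196 bp. Of 15 integrin adaptors 13 had a peak, with a median of 2609 bp, among them Lims2 (4212 bp), Pxn, encoding paxillin (3285 bp), and Tln1, encoding talin (3253 bp). Those of Lims2 and Pxn lay inside the models, and that of Tln1 also at an end of Creb3. Fermt1 and Fermt3, the kindlins of epithelium and blood cells, had none, whereas Fermt2 had 2919 bp. Of 14 other matrix receptors 13 had a peak, led by Ddr1 (3251 bp), Cd44 (3216 bp) and Sgcd, which encodes a sarcoglycan (2668 bp), and of 12 matrix proteases and inhibitors 10, led by Timp3 (4178 bp) and Mmp14 (4073 bp, also at an end of Mrpl52). Among 6 integrin chains outside the naming rule, Itgav and Itgae had a peak, that of Itgae inside its model at an end of Haspin, and the leukocyte chains Itgad, Itgal, Itgam and Itgax had none.

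Matrix genes are used by many cells of the gut wall, so markers of the labelled cells and of others were counted in the same way. The lists are short, and 67.0% of all protein-coding genes had a peak, so the counts say little by themselves. All 6 general markers of enteric neurons had a peak, the narrowest of 1340 bp at Ret. Of 4 nitrergic markers Etv1 and Gfra1 had broad peaks, Nos1 a peak of 183 bp inside its model at a score of 13.0, and Vip none. All 5 glial markers had peaks of 912 to 6775 bp, and all 6 smooth muscle markers peaks of 322 to 1503 bp. Of 7 fibroblast markers 5 had a peak, 2 of which are the members Col1a1 and Col3a1. Dpt and Pi16 had none, and Dcn and Lum had scores of 9.48 and 4.33. The remaining fibroblast marker had a widest peak of 1518 bp inside its model at a score of 28.2. Kit and Ano1, markers of interstitial cells of Cajal, had 1505 and 1075 bp. Endothelial and epithelial markers were marked in 2 of 4 each, without Cdh5, Tek, Vil1 and Krt20. The endothelial ones had widest peaks of 232 and 1501 bp, the latter at a start with a score of 91.5. Those of the epithelial ones measured 513 and 722 bp. Leukocyte markers were marked in 2 of 5, without Cd3e, Itgam and Adgre1. Of these 2, Ptprc had a widest peak of 333 bp inside its model at a score of 7.18, and that of Cd79a, 2828 bp at a score of 164.5, lay at its 3′ end and at an end of Arhgef1. The part of chromatin from such other cells in the peaks of the members was not tested.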

How the data were processed

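H3K4me3 peaks were taken from the list deposited for the 1 immunoprecipitated library. Per the file headers, they came from MACS2 and a paired-end library. The submitters' processing notes list BWA, Picard, MACS2 and mm10 but not how each was used. The score is the authors' own value per peak; its scale, the thresholds and the treatment of duplicates are not stated in the labels or headers. Gene models and annotated starts came from RefSeq tables on GRCm38.p6, whose chromosomes are those of mm10; 79.9% of protein-coding genes are in the table of starts. Low depth splits and loses weak peaks first, so presence and width depend on an unknown depth.

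Overlaps, widths and CG counts were computed with Python 3.11.15, pandas 2.3.3 and numpy 2.4.6. The overlap code was tested on simulated data. The members, gene lists and naming rule (the paired collagens, the widest and the unmarked genes per class, those marked away from the start or at a neighbour's end) were chosen with earlier results of these data known. One member and 1 marker are counted but not reported here by name.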

Additional observations from a re-analysis of the deposited data

How the results depend on the processing

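Counts of marked members stayed within 1.5 times the main count under all alternatives but 1. In the best-scored 25% of peaks, 11 members remained, among them 4 collagen, 3 laminin and 2 integrin genes, with a median width of 2293 bp, and 1 of the 3 type IV pairs, that of Col4a1 and Col4a2. Joining peaks less than 1 kb apart gave a median of 2190.5 bp. At the annotated start 6 members were no longer counted: Col12a1, Col28a1, Itga10, Itga2b, Itga9 and Itgb7. Requiring in addition a width of 300 bp, chosen after seeing the data, left 56 members. Leaving out peaks at an end of another protein-coding gene removed Col11a2, Col4a2, Itgb1bp1 and Itgb3bp. No paired analysis was possible because there was 1 library with a peak list. The unknown depth limits every absent peak: it was not called, which does not show that the mark was absent.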
